A study of Rattus norvegicus with 4 samples.

Results

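Genes of cholesterol and fatty acid synthesis and their regulators under the sterol regulatory element-binding proteins (SREBPs) were examined in heart muscle cells treated with carfilzomib. The members were 32 named genes, taken by their symbol from the expression table. Of these, 31 were matched among the 18699 genes of the table, and Mvd was not analysed here. They were 17 genes of cholesterol synthesis, 8 genes of fatty acid synthesis and modification (lipogenesis) and 6 genes of SREBP control.

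SREBPs are transcription factors made as membrane proteins of the endoplasmic reticulum. When sterols are scarce, the escort protein SCAP carries them to the Golgi, where proteases release the part that enters the nucleus. When sterols are plentiful, INSIG proteins hold SCAP and SREBP back in the endoplasmic reticulum. SREBP-2, encoded by Srebf2, chiefly drives cholesterol synthesis, and SREBP-1, encoded by Srebf1, chiefly drives fatty acid synthesis. INSIG-1 and the nuclear forms of the SREBPs are short-lived proteins that are known to be degraded by the proteasome in cultured mammalian cells.

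The cells were ventricular myocytes of newborn wild-type Sprague Dawley rats, 1 to 3 days of age, kept as a primary culture. There were 2 libraries of cells treated with 1 µM carfilzomib, an irreversible proteasome inhibitor used against multiple myeloma, for 24 h, and 2 libraries of cells given vehicle for the same time. Both groups grew in medium with 15% fetal bovine serum, which itself supplies lipids, and with 0.1 mM bromodeoxyuridine to restrain dividing cells that are not heart muscle. Whether the 2 libraries of a group stem from separate cultures or litters is not labelled. The p-values therefore rest on the spread between these libraries, and that spread may be technical. In the fit the spread of each gene is estimated partly from that of the other genes, since 2 libraries per group say little about 1 gene. Of the 31 members, 9 had estimated counts with decimals, so that reads may have been apportioned among similar genes: Acat2, Idi1, Hsd17b7, Sc5d, Insig2, Srebf1, Stard4, Scd and Elovl6.

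The carfilzomib libraries held 18884333 and 18655450 counts and the vehicle libraries 18757722 and 18736027. Of 14519 genes that passed the filter on low counts, 60.7% were called, 30.1% lower and 30.6% higher with carfilzomib, and the median log2 fold change of all genes tested was 0.0028. A gene is called at an adjusted p under 0.05 in edgeR's quasi-likelihood test, adjusted over all genes tested by the Benjamini-Hochberg method. All fold changes are carfilzomib over vehicle. All 8 cardiomyocyte markers were detected, 7 of them called lower, with a summed level of 17466 and 16467 TPM (a transcript level scaled for gene length and library size) with carfilzomib and 32809 and 33230 TPM with vehicle. Their median log2 fold change was -2.10: Myh6, Myh7 and Tnni3 had fitted levels of 7.25%, 7.37% and 11.0% of vehicle, whereas Nppa, which makes up much of the sum, had 10628 and 9971 TPM with carfilzomib and 10081 and 10488 TPM with vehicle. All 8 fibroblast markers were also detected, all 8 were called lower, and their sum was 5615 and 5384 TPM with carfilzomib and 10078 and 10079.5 TPM with vehicle, with a median log2 fold change of -0.82. The culture therefore held fibroblast RNA beside that of the labelled cell type, and fewer cells of a type and less RNA per cell cannot be told apart in bulk samples. Smooth muscle and pericyte markers were called lower in 6 of 6 genes, with sums of 2149 and 2091 TPM with carfilzomib and 5794 and 5923 TPM with vehicle. Macrophage markers were called lower in 5 of 5 tested, with sums of 31.8 and 29.2 TPM with carfilzomib and 98.5 and 99.4 TPM with vehicle. Cd163 was not tested, with 0 counts in each carfilzomib library and 1 in each vehicle library. Endothelial markers were called lower in 2 of 6 and higher in 2, with sums of 48.6 and 47.1 TPM with carfilzomib and 41.5 and 40.6 TPM with vehicle. The adipocyte markers, a check on the most lipogenic cell type, summed to 5.43 and 6.08 TPM with carfilzomib and 12.4 and 12.5 TPM with vehicle. Of 2 tested, 1 was called lower, Fabp4, with 2.65 and 2.69 TPM with carfilzomib and 9.24 and 10.48 TPM with vehicle. Pparg, not called, had 2.54 and 3.25 TPM with carfilzomib and 2.93 and 1.99 TPM with vehicle. Adipoq, Cidec, Plin1 and Lep were not tested, with at most 3 counts in any library. Both Adipoq and Cidec were at 0 counts in both vehicle libraries. The part of these other cell types in the results on the members was not tested.

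Transcripts of nearly the whole cholesterol pathway and of most lipogenic enzymes were lower with carfilzomib. Of the 31 members, 25 fell (80.6%) and 1 rose (3.23%), against 30.1% lower and 30.6% higher among all genes tested. Among 17 genes of cholesterol synthesis, 16 fell and none rose (0 of 17), and their median log2 fold change was -0.55. Among 8 lipogenic genes, 7 fell and none rose (0 of 8), and their median was -0.67. The SREBP control list had 2 genes that fell, 1 that rose and 3 that missed the threshold, and its median was -0.067. Its shares of 33.3% lower and 16.7% higher lie near or below those of all genes tested. The counts of genes that rose in the synthesis lists were also 0 at an unadjusted edgeR p under 0.05, and 0 with DESeq2 and limma-voom. DESeq2 called 15 of the 17 cholesterol genes lower and limma-voom 16, beside 3149 and 4366 of all 14519 genes tested. Both carfilzomib libraries lay below both vehicle libraries for 17 of 17 cholesterol genes, 7 of 8 lipogenic genes and 4 of 6 control genes, a separation that 40.0% of all genes tested showed. The opposite separation was found for 1 control gene, Insig2, against 39.8% of all genes tested. A fall of at least 1.5-fold was reached by 7 cholesterol genes, 5 lipogenic genes and 1 control gene, against 15.1% of all genes tested. A rise of that size was reached by 0 of 31 members, against 9.88% of all genes tested. The lists were not tested against each other.

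**Figure D1:**
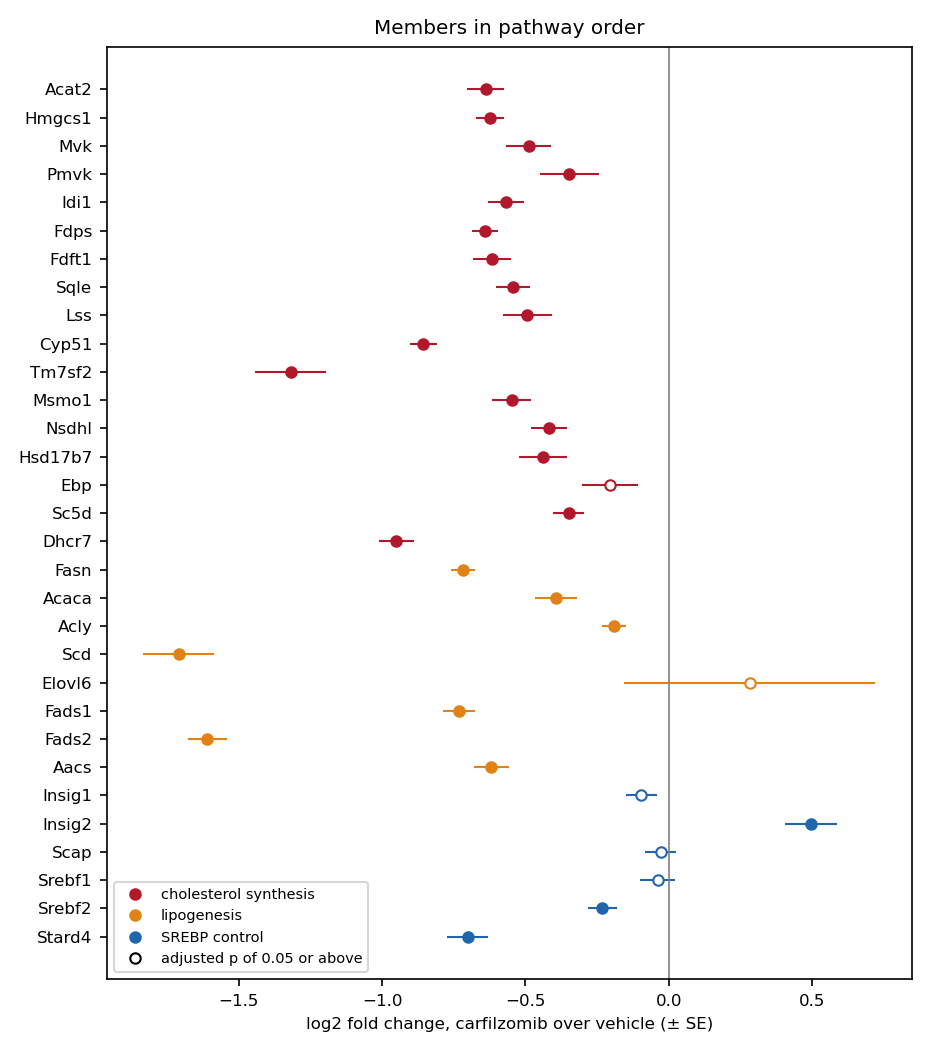
Log2 fold change of each of the 31 members, carfilzomib over vehicle, with its SE; filled points passed the test at an adjusted p under 0.05 and open points did not. The cholesterol genes lie between -1.32 and -0.21, and Insig2, at 0.50, is the only member that rose.

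Summed over each list, both synthesis lists were lower in both treated libraries. The cholesterol genes together stood at 673 and 689 TPM in carfilzomib libraries, against 1036 and 1024 TPM in vehicle libraries, so that the mean with carfilzomib was 66.1% of that with vehicle. The lipogenic genes stood at 215 and 220.1 TPM with carfilzomib and 364 and 346 TPM with vehicle, which is 61.3% of vehicle. The SREBP control genes stood at 206 and 215 TPM with carfilzomib and 224 and 218 TPM with vehicle, which is 95.4% of vehicle. In the synthesis lists the groups lay far apart relative to the spread of their libraries, and in the control list the nearest libraries of the groups differed by less than the 2 carfilzomib libraries did from each other.

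**Figure D2:**
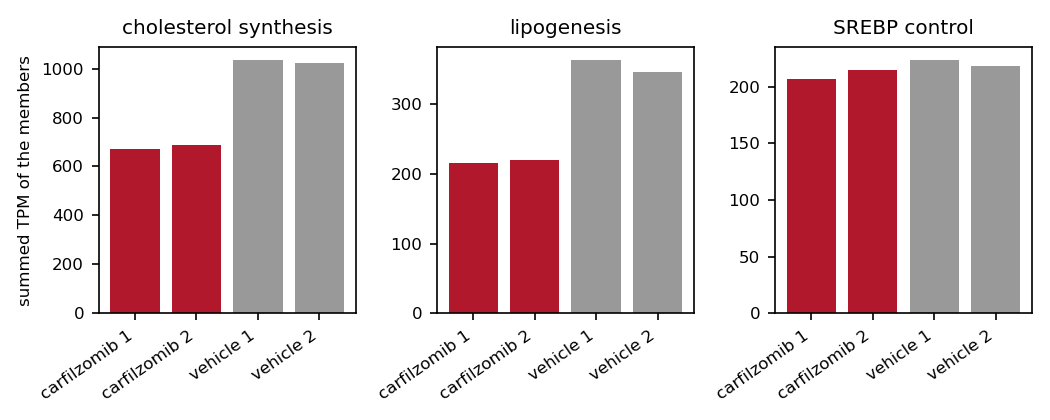
Summed TPM of the members of each list in each library, carfilzomib in red and vehicle in grey, with all axes starting at 0. The sums of the cholesterol and lipogenic genes are lower in both carfilzomib libraries (673 and 689 TPM, and 215 and 220.1 TPM) than in both vehicle libraries.

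SREBPs bind DNA weakly alone and are known to act with the factors NF-Y and Sp1 at neighbouring promoter sites. RefSeq promoters of the rat build GRCr8 were matched by gene ID for 24 of the 31 members. The 250 bases before the annotated start are shown for Hmgcs1, Fdps and Msmo1, cholesterol enzymes that fell, for Srebf2, which encodes the factor itself and fell, and for Insig1, a known SREBP target that did not pass. Capitals mark the NF-Y box CCAAT, the Sp1 box GGGCGG, the E-box CACGTG and the core TCACNCCA of a sterol regulatory element, each on either strand, so that a CCAAT on the other strand reads ATTGG.
Hmgcs1 (chr2:53382054-53382303, plus strand): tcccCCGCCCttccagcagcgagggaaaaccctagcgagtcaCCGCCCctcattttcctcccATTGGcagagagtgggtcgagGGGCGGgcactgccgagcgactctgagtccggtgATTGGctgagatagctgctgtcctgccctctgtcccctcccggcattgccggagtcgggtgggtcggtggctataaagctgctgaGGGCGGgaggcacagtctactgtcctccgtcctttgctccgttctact
Fdps (chr2:176804817-176805066, minus strand): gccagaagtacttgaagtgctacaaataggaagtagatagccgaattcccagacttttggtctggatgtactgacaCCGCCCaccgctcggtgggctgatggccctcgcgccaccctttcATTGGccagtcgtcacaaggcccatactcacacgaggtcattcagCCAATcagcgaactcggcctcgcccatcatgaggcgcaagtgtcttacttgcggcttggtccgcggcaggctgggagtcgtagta
Msmo1 (chr16:29746863-29747112, plus strand): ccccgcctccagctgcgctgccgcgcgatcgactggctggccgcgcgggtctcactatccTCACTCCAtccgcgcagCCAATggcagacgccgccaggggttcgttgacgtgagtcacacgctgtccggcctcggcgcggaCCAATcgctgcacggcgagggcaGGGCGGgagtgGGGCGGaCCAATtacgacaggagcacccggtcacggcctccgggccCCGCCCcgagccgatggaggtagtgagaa
Srebf2 (chr7:115543057-115543306, plus strand): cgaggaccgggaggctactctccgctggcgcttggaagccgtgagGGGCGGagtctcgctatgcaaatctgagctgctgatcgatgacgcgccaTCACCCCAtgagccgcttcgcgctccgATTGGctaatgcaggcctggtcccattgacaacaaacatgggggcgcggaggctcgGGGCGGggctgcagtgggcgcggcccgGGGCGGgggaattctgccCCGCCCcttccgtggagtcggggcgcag
Insig1 (chr4:8057770-8058019, minus strand): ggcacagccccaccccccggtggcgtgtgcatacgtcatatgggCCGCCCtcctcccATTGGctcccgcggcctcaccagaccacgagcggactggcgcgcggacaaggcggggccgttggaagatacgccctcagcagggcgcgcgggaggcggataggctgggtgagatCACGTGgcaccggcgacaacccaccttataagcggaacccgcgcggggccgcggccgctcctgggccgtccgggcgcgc

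The Fdps window holds 2 NF-Y boxes that begin 130 and 85 bases before the start, and the Hmgcs1 window holds 2 that begin 188 and 133 bases before it. The Msmo1 window holds 3 NF-Y boxes and the core of a sterol regulatory element 190 bases before the start. Srebf2 holds such a core 156 bases before the start, with 1 NF-Y box 129 bases before it. Insig1 holds 1 NF-Y box and an E-box 79 bases before the start, a kind of site that SREBPs can also bind. Over all 24 members with a sequence, 17 held an NF-Y box, which is 70.8%, against 36.5% of the 11307 tested genes with a sequence. Of the 19 members with a sequence that fell, 13 held it, and Ebp, Insig1, Insig2 and Srebf1, which did not fall, held it too. Every window shown holds an NF-Y box, whereas Scd, Fads2, Dhcr7, Cyp51, Acat2 and Aacs, which fell, did not hold it. Scap, which did not fall, did not hold it either. Whether the box goes with the change was not tested. An Sp1 box was held by 19 members, 79.2%, against 59.0% of tested genes, an E-box by 3 members, 12.5%, against 8.41%, and the core TCACNCCA by 2 members, 8.33%, against 3.14%. No other form of the sterol regulatory element was searched, so a window without this core, such as that of Fdps or Hmgcs1, may still hold such an element. Of the 3 members with an E-box, 1 fell, Sc5d, and Insig1 and Scap did not pass. No occurrences of the 4 motifs overlapped in the windows shown. A match is a description of these letters, and no binding was measured.

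The pathway opens with the mevalonate steps, which build the isoprene unit from acetyl-CoA. All 5 mevalonate genes measured fell, with log2 fold changes from -0.64 to -0.35. Hmgcs1 (gene ID 29637), the synthase that makes hydroxymethylglutaryl-CoA, had 88.5 and 93.2 CPM (counts scaled to library size, after normalisation) in carfilzomib libraries, against 140.4 and 139.4 CPM in vehicle libraries. Both treated libraries were lower, and the log2 change was -0.62 ± 0.05 (SE, n = 2 per group) at an adjusted p of 3.91e-08 in edgeR.

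Acat2, the cytosolic thiolase that joins acetyl-CoA units, had 27.1 and 26.2 CPM with carfilzomib and 40.8 and 42.3 CPM with vehicle, a log2 fold change of -0.64. Mvk, mevalonate kinase, had 18.2 and 19.2 CPM with carfilzomib and 25.9 and 26.7 CPM with vehicle, a log2 fold change of -0.49. Idi1, which isomerises isopentenyl diphosphate, had 37.9 and 39.7 CPM with carfilzomib and 58.3 and 56.8 CPM with vehicle, a log2 fold change of -0.57. In each of these genes the groups were separated by more than the libraries of a group differed. Pmvk, phosphomevalonate kinase, fell least of the 5, with 12.2 and 11.2 CPM with carfilzomib against 14.9 and 14.8 CPM with vehicle. It changed by -0.35 ± 0.10 (SE) on the log2 scale, at an adjusted p of 0.00838 in edgeR, and its call is not stable: DESeq2 gave an adjusted p of 0.122, and edgeR gave 0.0804 without carfilzomib replicate 2.

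The 4 genes from isoprenoids to lanosterol all fell, within a narrow range of log2 fold changes from -0.64 to -0.49. Fdps (gene ID 83791), farnesyl diphosphate synthase, was the most abundant cholesterol gene by TPM, with a mean of 169 TPM with carfilzomib and 262 TPM with vehicle. In CPM it had 109 and 112 with carfilzomib and 169 and 177 with vehicle, a log2 change of -0.64 ± 0.05 (SE) at an adjusted p of 1.41e-08 in edgeR. Fdft1, squalene synthase, which commits the pathway to sterols, had 47.5 and 50.7 CPM with carfilzomib and 79.2 and 71.5 CPM with vehicle. Its log2 fold change was -0.62.

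Sqle, squalene epoxidase, had 50.8 and 53.9 CPM with carfilzomib and 76.5 and 75.9 CPM with vehicle, a log2 fold change of -0.54. Lss, which closes the sterol rings, had 17.7 and 16.2 CPM with carfilzomib and 24.6 and 23.0 CPM with vehicle, a log2 fold change of -0.49. The groups did not overlap in either gene.

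The 8 genes that turn lanosterol into cholesterol were the most spread, with log2 fold changes from -1.32 to -0.21. The strongest fall of the whole pathway was that of Tm7sf2 (gene ID 293688), a sterol reductase, with 5.97 and 5.62 CPM with carfilzomib and 13.5 and 15.4 CPM with vehicle. The treated libraries were both under the lowest vehicle library, and the fitted level was 40.1% of that with vehicle. In the fit the log2 change came to -1.32 ± 0.12 (SE), at an adjusted p of 2.80e-07 in edgeR, and 4.08% of all genes tested had a lower one. Dhcr7 (gene ID 64191), a reductase of the last steps, had 30.5 and 29.4 CPM with carfilzomib and 57.1 and 58.6 CPM with vehicle, a log2 fold change of -0.95 ± 0.06 (SE).

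Cyp51 (gene ID 25427), the cytochrome that removes a methyl group from lanosterol, had 98.2 and 99.0 CPM with carfilzomib and 183 and 174 CPM with vehicle. The estimated log2 change was -0.86 ± 0.05 (SE), at an adjusted p of 6.01e-10 in edgeR. The groups were far apart. Msmo1, which oxidises the remaining methyl groups, had 48.4 and 55.0 CPM with carfilzomib and 74.2 and 77.0 CPM with vehicle, a log2 fold change of -0.55. Nsdhl and Hsd17b7, which act with it to remove those groups, fell by 0.42 and 0.44 on the log2 scale. Sc5d, a sterol desaturase, had 70.6 and 69.8 CPM with carfilzomib and 90.7 and 88.2 CPM with vehicle, a log2 fold change of -0.35. The exception was Ebp, the sterol isomerase, with 13.9 and 15.0 CPM with carfilzomib and 15.8 and 17.6 CPM with vehicle. The groups were apart but close, and the log2 fold change of -0.21 (95% interval -0.42 to 0.0037) had an edgeR adjusted p of 0.0830. Without vehicle replicate 1 its edgeR adjusted p was 0.0492.

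**Figure D3:**
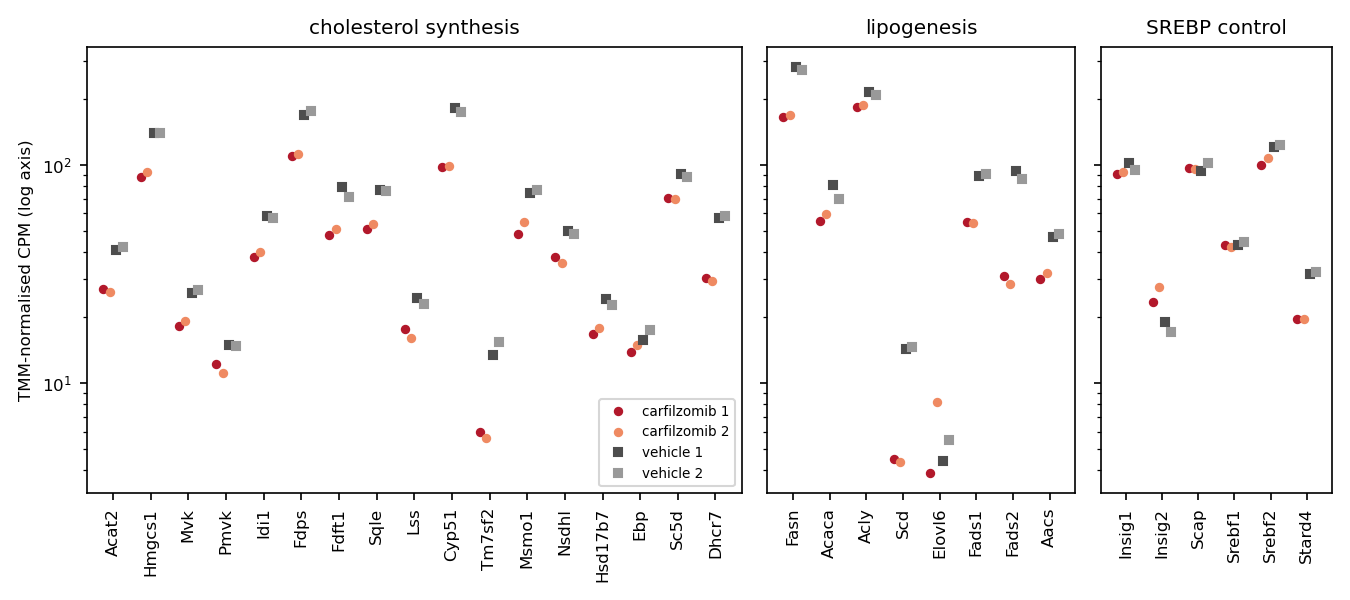
TMM-normalised CPM of each member in each library on a log axis, with carfilzomib as circles and vehicle as squares. The groups are apart for 17 of 17 cholesterol genes, whereas the carfilzomib libraries of Elovl6 lie on both sides of the vehicle libraries.

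Among the lipogenic enzymes the falls were widest in Scd and Fads2, which are desaturases, enzymes that put double bonds into fatty acids. Fads2 (gene ID 83512), which opens the synthesis of polyunsaturated fatty acids, had 30.8 and 28.4 CPM with carfilzomib and 94.3 and 86.5 CPM with vehicle. Neither treated library came near the vehicle libraries, and the fitted level was 3.05-fold lower. The estimated log2 change was -1.61 ± 0.07 (SE), at an adjusted p of 4.04e-11 in edgeR, and 2.38% of all genes tested had a lower one. Scd (gene ID 246074), a stearoyl-CoA desaturase of monounsaturated fatty acids, was scarce, with 4.51 and 4.34 CPM with carfilzomib and 14.4 and 14.6 CPM with vehicle. Its log2 fold change was -1.71 ± 0.12 (SE), the lowest of all 31 members. Scd has a count with decimals, so its reads may have been apportioned among similar genes. Any other stearoyl-CoA desaturase gene was not examined. Fads1, the partner desaturase of Fads2, had 54.6 and 53.9 CPM with carfilzomib and 89.1 and 91.1 CPM with vehicle. Its log2 fold change of -0.73 was close to the -0.72 of Fasn, which is not a desaturase.

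Fasn (gene ID 50671), fatty acid synthase, had 166 and 169.7 CPM with carfilzomib and 280.2 and 272 CPM with vehicle. The groups were far apart, and the log2 change was -0.72 ± 0.04 (SE) at an adjusted p of 1.56e-09 in edgeR. Aacs, which activates acetoacetate for lipid synthesis, had 30.0 and 31.8 CPM with carfilzomib and 46.7 and 48.2 CPM with vehicle, a log2 fold change of -0.62. Acaca, the carboxylase that makes malonyl-CoA, had 55.2 and 59.4 CPM with carfilzomib and 80.7 and 69.8 CPM with vehicle, a log2 fold change of -0.39. Acly, which makes cytosolic acetyl-CoA from citrate, fell least, with 185 and 188 CPM with carfilzomib and 215 and 210.2 CPM with vehicle. The difference on the log2 scale was -0.19 ± 0.04 (SE), at an adjusted p of 0.00106 in edgeR.

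Elovl6, which lengthens saturated fatty acids, was the lipogenic gene that did not pass. It had 3.88 and 8.16 CPM with carfilzomib and 4.42 and 5.47 CPM with vehicle, so the vehicle values lay between those of the 2 carfilzomib libraries. Its log2 fold change was 0.28 (95% interval -1.02 to 1.58), with an edgeR adjusted p of 0.627. A single library decides its direction: the log2 fold change was 0.72 with an edgeR adjusted p of 0.00506 without carfilzomib replicate 1, and -0.34 with an edgeR adjusted p of 0.242 without carfilzomib replicate 2.

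Of the SREBP control genes, 3 of 6 missed the threshold. Insig2 (gene ID 288985), which encodes a protein that retains SCAP in the endoplasmic reticulum, rose 1.41-fold, with 23.6 and 27.4 CPM with carfilzomib and 19.0 and 17.2 CPM with vehicle. Both treated libraries were above both vehicle libraries, and the log2 change was 0.50 ± 0.09 (SE) at an adjusted p of 2.52e-04 in edgeR. Insig1 (gene ID 64194), its relative and itself a target of SREBP, had 91.1 and 92.8 CPM with carfilzomib and 102 and 94.6 CPM with vehicle. The log2 fold change of Insig1 was -0.10 (95% interval -0.21 to 0.020), with an edgeR adjusted p of 0.141. Without vehicle replicate 2 the log2 fold change of Insig1 was -0.15 with an edgeR adjusted p of 0.0430. By TPM, Insig1 stood at 72.0 with carfilzomib and 76.9 with vehicle and Insig2 at 27.4 with carfilzomib and 19.5 with vehicle, so Insig1 was the more abundant of the 2 in both groups.

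Srebf2 (gene ID 300095), which encodes SREBP-2, fell modestly, with 100.3 and 108 CPM with carfilzomib and 121 and 123 CPM with vehicle. It changed by -0.23 ± 0.05 (SE) on the log2 scale, at an adjusted p of 0.00109 in edgeR. Srebf1, which encodes SREBP-1, had 42.9 and 42.0 CPM with carfilzomib and 42.9 and 44.3 CPM with vehicle, and its nearest libraries, counted above as not overlapping, were level at this precision. Its log2 fold change was -0.04 (95% interval -0.17 to 0.09), with an edgeR adjusted p of 0.601, and the table does not separate its isoforms. Scap had 96.3 and 95.7 CPM with carfilzomib and 93.7 and 102 CPM with vehicle, with treated values between those of vehicle. The log2 fold change of Scap was -0.03 (95% interval -0.15 to 0.088), with an edgeR adjusted p of 0.673. Stard4, a sterol transfer protein and SREBP target rather than a regulator, fell, with 19.6 and 19.7 CPM with carfilzomib and 31.6 and 32.3 CPM with vehicle. In the fit the log2 change came to -0.70 ± 0.07 (SE), at an adjusted p of 6.77e-07 in edgeR, which is within the range of the cholesterol enzymes.

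The 4 neighbouring groups of genes were counted the same way. Of 12 genes of SREBP cleavage and INSIG turnover, 7 rose and 0 fell, and the median log2 fold change was 0.17. The count lower was also 0 at an unadjusted edgeR p under 0.05, and 0 with DESeq2 and limma-voom. DESeq2 called 5 of the 12 higher, beside 3340 higher and 3149 lower among all 14519 genes tested. With limma-voom 7 of the 12 were called higher, beside 4452 higher and 4366 lower among all genes tested. In edgeR 30.6% of all genes tested were called higher and 30.1% lower. Faf2, an adaptor that passes ubiquitinated membrane proteins on for extraction, had 134 and 128 CPM with carfilzomib and 91.2 and 94.0 CPM with vehicle, a log2 fold change of 0.50 ± 0.05 (SE). The proteases that cleave SREBP, Mbtps1 and Mbtps2, rose by log2 fold changes of 0.18 and 0.22, at edgeR adjusted p of 0.00205 and 0.0368. Both were picked with their values in view.

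Of 12 genes of isoprenoid branches, 8 rose (66.7%) and 3 fell (25%), against 30.6% higher and 30.1% lower among all genes tested. These branches use the products of the mevalonate steps for prenylation, dolichol and coenzyme Q. The list median was 0.21. With DESeq2, 5 were called higher and 2 lower, beside 3340 higher and 3149 lower among all 14519 genes tested. Dhdds, a subunit of dolichol synthesis, had 61.2 and 55.6 CPM with carfilzomib and 40.1 and 42.3 CPM with vehicle, a log2 fold change of 0.50. Pggt1b, a subunit of geranylgeranyl transferase, also rose, by a log2 fold change of 0.50. Pdss1, which makes the tail of coenzyme Q, had 10.2 and 11.2 CPM with carfilzomib and 15.4 and 14.5 CPM with vehicle, a log2 fold change of -0.48.

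Of 17 genes of sterol transport, esterification and the LXR sterol receptors, 7 rose (41.2%) and 3 fell (17.6%), and the median was 0.15, beside 30.6% higher and 30.1% lower among all genes tested. Nr1h2, which encodes LXR beta, had 134 and 133.5 CPM with carfilzomib and 78.6 and 88.2 CPM with vehicle, a log2 fold change of 0.68 ± 0.06 (SE). Nceh1, a cholesterol ester hydrolase, rose by a log2 fold change of 0.60, while Vldlr, a lipoprotein receptor, had 56.5 and 53.7 CPM with carfilzomib and 76.5 and 79.6 CPM with vehicle, a log2 fold change of -0.50. Of 18 other genes of lipid synthesis, 5 rose (27.8%) and 7 fell (38.9%), and the median was -0.0099, with shares close to those of all genes tested (30.6% higher and 30.1% lower). Me1, the malic enzyme that supplies NADPH, had 268 and 278 CPM with carfilzomib and 139 and 133 CPM with vehicle, a log2 fold change of 1.00 ± 0.04 (SE). Mid1ip1, an activator of acetyl-CoA carboxylase, and Elovl5, an elongase of polyunsaturated fatty acids, fell by 0.62 and 0.56 on the log2 scale.

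**Figure D4:**
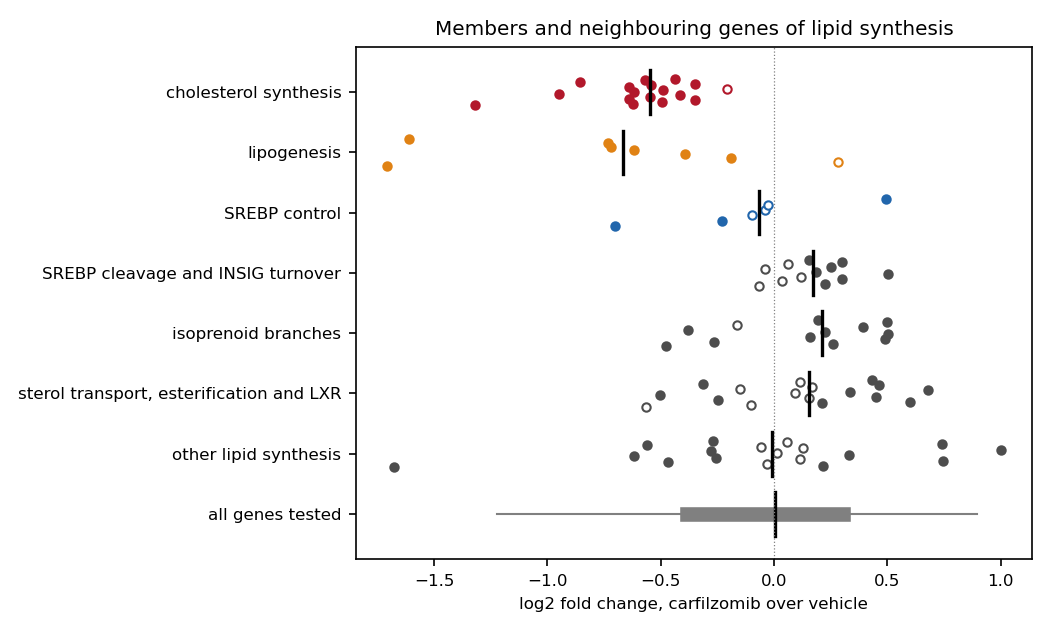
Log2 fold change, carfilzomib over vehicle, of the members by list in colour and of 4 neighbouring lists in dark grey; open points did not pass the test and black bars are list medians. For all genes tested, the thick grey bar spans the 25th to 75th percentile (-0.38 to 0.30) and the thin line the 5th to 95th (-1.22 to 0.89).

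The authors' deposited table of called genes lists 25 of the 31 members, 24 of them lower and 1 higher. It holds 6063 genes in all, beside 18699 in the expression table, and how many of all its genes are lower or higher was not counted. It comes from the same libraries, so it is not separate evidence. Its log2 fold changes for Fads2, Cyp51 and Insig2 are -1.60, -0.85 and 0.50 in the authors' deposited table. The members not called there are Pmvk, Ebp, Insig1, Scap, Srebf1 and Elovl6.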

How the data were processed

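RNA of 2 carfilzomib and 2 vehicle libraries was measured by sequencing, and groups and replicate numbers came from the sample titles. The labels name no control other than vehicle, so columns named as a control were read as the vehicle libraries with that number. Estimated counts, without normalisation, were deposited by the authors. In each library 28.5% to 28.9% of genes have decimals, defined as a distance above 1e-06 to the nearest whole number. No header or label says what produced them, and 10 further expression columns (FPKM and group means) were not used. The authors also deposited TPM, used here for levels per length, and FPKM, not used here, per the file headers. Their comparison table gives a log2 fold change with a p-value and q-value from DESeq2, per the file headers, for 6063 genes. Per the submitters' processing notes, the build was Rnor_6.0 and the tools included featureCounts 1.6.0, DESeq2, HISAT and Bowtie2, and also cutadapt 2.0, FastQC 0.11.8 and R 3.3.2. No source states the strand setting, so reads of antisense partners cannot be told apart.

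Counts were rounded to whole numbers and tested with edgeR 4.0.16 in R 4.3.3, with filterByExpr (minimum count 10, minimum total 15), TMM factors from 0.987 to 1.01, a robust quasi-likelihood F test and Benjamini-Hochberg adjustment over all 14519 genes tested, at 0.05. All 31 members in the table passed the filter. Each SE was taken as the size of the log2 fold change over the root of F, and 95% intervals use the fit's degrees of freedom. CPM are TMM-normalised. The chi-square per degree of freedom between replicates was 3.08 for carfilzomib and 3.42 for vehicle, so they were kept as separate libraries. Alternatives were DESeq2 1.42.0, limma-voom (limma 3.58.1), RLE factors, library size alone, no filter, a stricter filter (1 CPM in 2 libraries, total of at least 50), a replicate block, each library left out, genes with whole counts only and a minimum of 1.5-fold. The fit was also run on simulated counts in which a small part of the genes changed and all genes had the same spread. In these data far more genes were called, so that run says little about the calls made here. The members, lists and tests were chosen with earlier results of these data known. All members are named; each neighbouring list also gives its 2 most changed called genes in the commoner direction and 1 in the opposite one, if they average 10 CPM or more. A gene that this rule names is not reported here. The promoter table was searched in 250 bases before each start, and the motifs and the 5 promoters shown were chosen after values were seen.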

Additional observations from a re-analysis of the deposited data

How the results depend on the processing

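All called members kept their direction under all alternatives run, and the calls of 30 of 31 members stood under DESeq2, where Pmvk was lost. With a minimum of 1.5-fold, the genes called lower were 2198 of all genes tested, 7 of cholesterol synthesis and 1 of SREBP control, and the genes called higher were 1435 of all genes and 0 of SREBP control. DESeq2 called 5 of 12 isoprenoid branch genes higher and 2 lower, beside 3340 higher and 3149 lower among all 14519 genes tested. With whole counts only, 22 members remain and keep their calls; Insig2, Stard4 and Srebf1 are left out by construction, so SREBP control had 1 gene called lower, 0 called higher and a median of -0.089. With library size alone that median was -0.034 and the log2 fold change of Scap was 0.0049, while the median of all genes tested was 0.036. Leaving out 1 library at a time, the cholesterol median ran from -0.60 to -0.53, the SREBP control median from -0.082 to -0.062, the lipogenic genes called higher from 0 to 1, Scap from -0.088 to 0.035 and Elovl6 from -0.34 to 0.72. The deviations of same-numbered libraries from their group means had a correlation of -0.015 over 14519 genes, so these libraries did not deviate together. A pairing with little effect on expression would give the same value, and the labels do not say whether the numbers pair the samples. With a replicate block 4083 genes were called lower and 4146 higher, and the call of no member changed; the block left 16 cholesterol and 7 lipogenic genes called lower. No detectable size of change was computed for 2 libraries a group.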
